A study of Mus musculus with 40 samples.

Results

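Pdpn and Aqp3 are a pair of cell surface genes, 2 of the 19057 genes named on the array, that were singled out because their signal was far higher in wild-type (WT) Th17 cells than in WT Th1 cells. Each gene had 1 probe, both probes passed the detection filter, and both genes were therefore among the 10730 genes tested. The values that chose them were the WT Th17 and WT Th1 signals, so the difference between WT Th17 and WT Th1 cells is given below as a description only, without a test. The comparisons with WT cells and between the times of WT cells draw on the same WT values. High WT Th17 and low WT Th1 readings favoured the choice, which tilts Malt1-/- minus WT differences down in Th17 and up in Th1 cells by an unknown amount. The comparison of Th17 with Th1 cells in Malt1-/- arrays used no array that entered the choice.

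Pdpn encodes podoplanin, a small mucin-type transmembrane glycoprotein that binds the platelet and dendritic cell receptor CLEC-2 and links to actin through the ERM proteins; it is best known on lymphatic endothelium and lymph node stroma and is also carried by Th17 cells. Aqp3 encodes aquaporin 3, a membrane channel of the aquaglyceroporin group that passes water, glycerol and hydrogen peroxide and is known in T cells for a part in migration. The signature products of Th1 and Th17 cells, both helper T cells, are interferon gamma and interleukin 17, and Malt1 encodes a scaffold and protease that carries signals from the antigen receptor to NF-kappaB.

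Total RNA was measured on Illumina bead arrays in 8 groups of 5 arrays, 40 in all, which differed in genotype (WT or Malt1-/-), induced lineage (Th1 or Th17) and time after induction (48 h or 72 h). All groups came from C57BL6 mice aged 8 to 12 weeks, whose lymph nodes and spleens gave the naive CD4+CD62L+ T cells that were induced. The culture conditions, the part of Malt1 that is missing, and whether replicates came from separate mice are not given in the sources used here, so p-values measure the spread between these arrays, which may in part be technical. In RNA from whole cultures, fewer cells carrying a transcript and less of it in each cell cannot be told apart.

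The labels were checked first. Malt1 signal was 12.49 ± 0.39 (log2, SD, n = 5) in WT Th17 cells at 48 h and 8.64 ± 0.39 in their Malt1-/- counterparts, and the mean of every Malt1-/- group lay below that of every WT group. All 5 WT Th17 arrays of 48 h, replicate 5 included, read 11.90 to 12.96. Per array, 14640 to 17409 of the 45281 probes were detected. The summed signal of 5 Th1 markers was 8527 to 39020 in Th1 arrays and 340 to 1610 in Th17 arrays. Of these 5, 3 were lower and 1 was higher in Malt1-/- Th17 than in Malt1-/- Th1 cells at each time. The higher marker was Cxcr3, by 2.2 at 48 h and 2.19 at 72 h (limma adjusted p = 4.7e-06 and 4.5e-06). The summed signal of the Th17 markers was 3825 to 27113 in Th17 arrays and 33 to 782 in Th1 arrays. Markers of stromal, endothelial, macrophage and epithelial cells, several of which can carry podoplanin or aquaporin 3, summed to no more than 387 in any array, against 23652 or more for T cell markers. All such sums took in only listed markers that passed the detection filter. These were 3 of 8 stromal, 2 of 6 endothelial, 3 of 8 macrophage, 1 of 6 epithelial and 1 of 2 CD8 T cell markers. Dendritic cell markers reached 99, B cell markers 609 and CD8 T cell markers 2948, the last without a rise in any Malt1-/- group. Over all tested genes, 7 arrays were closer to the median of another group than to that of the other arrays of their own: WT Th17 48 h replicate 5, WT Th17 72 h replicates 4 and 5, WT Th1 48 h replicate 1, WT Th1 72 h replicate 4, Malt1-/- Th17 72 h replicate 2 and Malt1-/- Th1 72 h replicate 2. Another array, WT Th1 48 h replicate 4, carried an Il17f signal of 9.37 on the log2 scale, where the other 4 arrays of its group had 4.45 to 4.87. Results that rest on these arrays are given with and without them. Leaving out an array because it lies closer to a group it is compared with tends to widen the difference by that choice.

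The promoters are shown because both genes follow the lineage and their starts can be read side by side. Each is the RefSeq sequence on GRCm38.p6 from 250 bases before the gene's start to 50 bases after it, read on the minus strand, at chr4:143299515-143299814 for Pdpn and chr4:41098134-41098433 for Aqp3. Capitals mark AGGTCA, the core letters bound by several nuclear receptors, CACGTG, which holds ACGTG (the core of hypoxia response elements) on both strands, and TATAAA, the TATA box.
Pdpn: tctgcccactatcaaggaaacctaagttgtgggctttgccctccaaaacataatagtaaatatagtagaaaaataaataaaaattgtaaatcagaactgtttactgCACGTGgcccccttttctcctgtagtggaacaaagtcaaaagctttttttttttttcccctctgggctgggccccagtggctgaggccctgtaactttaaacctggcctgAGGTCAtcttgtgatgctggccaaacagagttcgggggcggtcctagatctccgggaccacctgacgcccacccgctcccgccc
Aqp3: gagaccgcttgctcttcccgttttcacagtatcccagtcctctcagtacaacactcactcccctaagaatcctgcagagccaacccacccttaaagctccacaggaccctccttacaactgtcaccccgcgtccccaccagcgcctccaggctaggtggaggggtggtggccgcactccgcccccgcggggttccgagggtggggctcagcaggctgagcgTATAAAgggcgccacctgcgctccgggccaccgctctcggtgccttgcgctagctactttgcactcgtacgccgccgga

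The 2 windows differed in make-up, with 48.7% G and C in the Pdpn window and 64% in the Aqp3 window. The Pdpn window held AGGTCA at position -34 from the start, a run that 16.3% of the 32851 promoters of this length hold anywhere on either strand. It also held ACGTG overlapping itself on opposite strands at positions -144 and -143. ACGTG anywhere on either strand, overlapping or not, occurs in 19.6% of those promoters, and the share with the overlap was not counted. The Aqp3 window held TATAAA at position -29. TATAAA anywhere on either strand occurs in 13.6% of promoters, and the share with it at that position was not counted. TGANTCA (AP-1), TTCNNNGAA (STAT), TGTGGT (RUNX) and the consensus NF-kappaB motif, searched on both strands, occurred in neither window, and they occurred in 7.81%, 8.3%, 16.8% and 8.46% of all promoters. A run of letters in these 300 bases is a description and says nothing of binding.

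Pdpn signal was high in all Th17 groups. In WT Th17 cells at 48 h, the 5 arrays read 12.58, 12.47, 12.47, 12.89 and 10.25 on the log2 scale, the scale of every level below. The fifth array, one of those closer to another group, lay far below the other 4. At 72 h the WT Th17 arrays read 12.39, 13.12, 12.17, 10.81 and 10.61, so that 3 arrays were high and replicates 4 and 5, also closer to Malt1-/- groups, were low. Malt1-/- Th17 cells were more even: they read 10.96, 10.60, 10.21, 10.71 and 11.22 at 48 h. At 72 h they read 10.91, 11.71, 11.47, 11.53 and 11.64, with 4 of the 5 arrays above every 48 h array.

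In Th1 cells Pdpn was near background at 48 h and detected at 72 h. WT Th1 arrays at 48 h read 4.98, 4.95, 4.84, 7.55 and 4.81, and the probe was detected on 1 of them, replicate 4. Malt1-/- Th1 arrays at 48 h read 4.95, 5.07, 5.16, 4.88 and 4.77, with the probe detected on 0 of 5. At 72 h the WT Th1 arrays read 8.79, 8.76, 8.93, 5.17 and 7.37, and 4 of 5 were detected. The exception, replicate 4, is among the arrays closer to another group. Malt1-/- Th1 arrays at 72 h read 8.26, 5.70, 6.90, 6.59 and 7.71, all detected and all above every Malt1-/- Th1 array of 48 h.

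Ordered by mean, Pdpn signal ran from WT Th17 at 48 h (12.13 ± 1.07, SD, n = 5 here and below) through WT Th17 at 72 h (11.82 ± 1.07), Malt1-/- Th17 at 72 h (11.45 ± 0.32) and Malt1-/- Th17 at 48 h (10.74 ± 0.38) to WT Th1 at 72 h (7.80 ± 1.60). Below these lay Malt1-/- Th1 at 72 h (7.03 ± 0.99), WT Th1 at 48 h (5.43 ± 1.19) and Malt1-/- Th1 at 48 h (4.97 ± 0.15). Neighbours in this order overlapped in their arrays, with 1 gap: the lowest Malt1-/- Th17 array at 48 h, at 10.21, was above the highest WT Th1 array at 72 h, at 8.93. The raw signals behind the extremes were a median of 5268.3 intensity units (1460.4 to 10227) in WT Th17 cells at 48 h and 148.4 (132.6 to 166.3) in Malt1-/- Th1 cells at 48 h.

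Aqp3 signal was high in Th17 cells of both genotypes. WT Th17 arrays at 48 h read 10.70, 10.61, 10.85, 10.62 and 10.97, the tightest of the Th17 groups, and replicate 5, low for Pdpn, was the highest of them. Malt1-/- Th17 arrays at 48 h read 11.23, 10.82, 11.06, 10.95 and 10.60 and overlapped with WT. WT Th17 arrays at 72 h read 9.59, 9.72, 9.62, 10.16 and 11.52. Replicate 5 was again the highest there, above all 48 h WT arrays. Malt1-/- Th17 arrays at 72 h read 9.32, 10.25, 9.80, 10.16 and 10.35, all below every Malt1-/- Th17 array of 48 h.

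In Th1 cells Aqp3 stayed near background at both times. WT Th1 arrays at 48 h read 4.57, 4.63, 4.77, 7.90 and 4.66, with detection on 1 array, the same replicate 4 that carried Pdpn and Il17f. WT Th1 arrays at 72 h read 5.00, 5.43, 5.76, 4.86 and 5.12, with detection on 2. Malt1-/- Th1 arrays read 4.84, 4.58, 4.99, 5.06 and 4.77 at 48 h, with detection on 0 of 5, and 4.74, 4.69, 4.80, 4.48 and 5.70 at 72 h, with detection on 1. No Th1 group rose clear of the others, and each overlapped with its neighbours in the order.

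By mean, the Aqp3 order was Malt1-/- Th17 at 48 h (10.93 ± 0.24), WT Th17 at 48 h (10.75 ± 0.16), WT Th17 at 72 h (10.12 ± 0.81), Malt1-/- Th17 at 72 h (9.98 ± 0.42), WT Th1 at 48 h (5.30 ± 1.45), WT Th1 at 72 h (5.23 ± 0.36), Malt1-/- Th1 at 72 h (4.88 ± 0.47) and Malt1-/- Th1 at 48 h (4.85 ± 0.19). The raw signal ran from a median of 1979.8 (1685.6 to 2963.4) in Malt1-/- Th17 cells at 48 h to 135.7 (132.9 to 216.1) in Malt1-/- Th1 cells at 72 h. The only break between neighbours was the one between the Th17 and the Th1 groups.

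**Figure D1:**
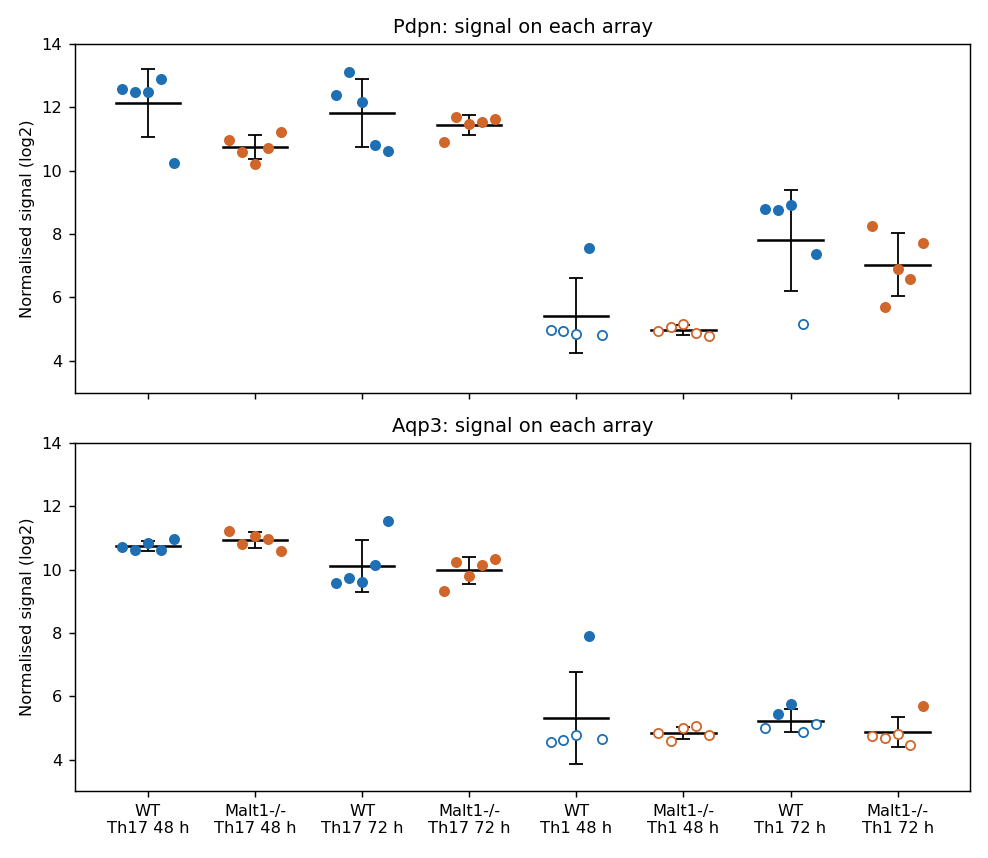
Normalised signal (log2) of Pdpn (top) and Aqp3 (bottom) on each of the 40 arrays, with WT in blue and Malt1-/- in orange; filled points are arrays on which the probe was detected, open points arrays on which it was not, the line is the mean and the bar 1 SD (n = 5). Both genes stand high in the 4 Th17 groups, and WT Th1 48 h replicate 4 stands apart for both. Pdpn reads 5.17 to 8.93 in Th1 arrays of 72 h, where the array at 5.17, WT replicate 4, was not detected.

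As a description of the choice, WT Th17 exceeded WT Th1 cells by 6.71 on the log2 scale for Pdpn at 48 h (105-fold) and by 4.02 at 72 h (16.2-fold). For Aqp3 the same differences were 5.44 (43.5-fold) and 4.89 (29.6-fold). Without WT Th1 48 h replicate 4, the 48 h differences were 7.24 for Pdpn and 6.09 for Aqp3.

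In Malt1-/- cells, whose signals the rule of choice did not use, both genes were far higher in Th17 than in Th1 cells at both times. Here 9.83% of all tested genes were called higher at 48 h (adjusted p under 0.05, Benjamini-Hochberg over 10730 genes) and 11.6% at 72 h, and 2 of 2 genes were called at each time. At 48 h Pdpn was at least 43.3-fold higher in Malt1-/- Th17 than in Malt1-/- Th1 cells on background-corrected signals, a bound, since the probe was detected on 0 of 5 Th1 arrays (measured difference 5.77 on the log2 scale, 95% confidence interval 4.60 to 6.95, limma adjusted p = 1.1e-09). The bound rests on that correction: the difference was 3.53 without it, 3.52 on the authors' value table and 4.74 with a larger offset of 50, and it passed in each.

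At 48 h Aqp3 was at least 49.6-fold higher on the same signals (measured difference 6.09, interval 5.29 to 6.88, limma adjusted p = 3.3e-14). Without background correction, on the authors' table and with an offset of 50 the difference was 3.76, 3.74 and 4.98. The groups did not overlap for either gene. At 72 h the Pdpn difference was 4.42 (interval 3.25 to 5.59, 21.4-fold, limma adjusted p = 2.7e-07) and the Aqp3 difference 5.10 (interval 4.30 to 5.89, 34.2-fold, limma adjusted p = 2.3e-12). These too were smaller without background correction, at 3.42 for Pdpn and 2.89 for Aqp3, and both passed. The genes are not set against each other here, since the Th1 signals lay at or near the floor.

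The question that the genotypes address is what loss of Malt1 does to each lineage. Of the 2 genes, 0 were called in any of the 4 comparisons of Malt1-/- with WT cells, in which 6.38% (Th17, 48 h), 4.42% (Th17, 72 h), 1.39% (Th1, 48 h) and 2.77% (Th1, 72 h) of all tested genes were called in either direction. Pdpn in Th17 cells at 48 h came nearest. Its mean was 10.74 in Malt1-/- and 12.13 in WT cells, a difference of -1.39 ± 0.58 (SE, interval -2.57 to -0.22), or 2.63-fold lower. The unadjusted p in limma was 0.021 and the adjusted p 0.14, and the groups overlapped through WT replicate 5.

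All 5 Malt1-/- arrays lay below the other 4 WT arrays, and without WT replicate 5 the difference was -1.86 (limma adjusted p = 0.032). Without all 7 arrays closer to another group it was -1.86 as well (limma adjusted p = 0.0021); those arrays were picked by their expression, which includes these genes. With array weights it was -1.70 (limma adjusted p = 0.0037), without background correction -1.34 (limma adjusted p = 0.035), and the exact two-sided permutation test of this 1 gene gave p = 0.04 before adjustment. It did not pass with median scaling (-1.18, limma adjusted p = 0.2), an offset of 50 (limma adjusted p = 0.074), no detection filter (0.22), a stricter one (0.12) or only the groups compared in the fit (0.059). Nor did it pass when any other single array of these groups was left out (-1.51 to -1.21, limma adjusted p 0.15 to 0.25).

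At 72 h the Pdpn difference in Th17 cells was -0.37 ± 0.58 (interval -1.54 to 0.81, limma adjusted p = 0.76). Without the arrays closer to another group it was -1.17 (limma adjusted p = 0.08). The change of the genotype effect between the times, 1.03 ± 0.82, did not pass (limma adjusted p = 0.56). In Th1 cells the Pdpn difference was -0.46 at 48 h (limma adjusted p = 0.84) and -0.77 at 72 h (interval -1.94 to 0.40, limma adjusted p = 0.54). The 48 h value turns to 0.07 without WT replicate 4, and the probe was then undetected in both groups.

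Aqp3 showed no difference between genotypes that passed the test. At 48 h the difference was 0.19 ± 0.39 (interval -0.61 to 0.98, limma adjusted p = 0.82). At 72 h it was -0.14 ± 0.39 (interval -0.94 to 0.65, limma adjusted p = 0.87), and it turned to 0.21 without WT replicate 5 and to 0.06 under median scaling. In Th1 cells it was -0.46 at 48 h (limma adjusted p = 0.71), 0.19 without WT replicate 4, and -0.35 at 72 h (limma adjusted p = 0.7).

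Il17a and Il17f, the lineage's defining cytokine genes, fell in Malt1-/- Th17 cells on the same arrays. Il17a differed by -2.85 at 48 h and -3.46 at 72 h, and Il17f by -1.90 and -1.67, each with a limma adjusted p under 0.05. The change of Aqp3 relative to each was tested with exact two-sided permutation tests (4 comparisons, added after the values were seen, smallest possible p 0.0079). Relative to Il17a, Aqp3 was higher in Malt1-/- cells by 3.04 at 48 h and by 3.32 at 72 h (exact adjusted p = 0.021 for both). Relative to Il17f, it was higher by 2.09 at 48 h (exact adjusted p = 0.021) and by 1.53 at 72 h (exact adjusted p = 0.024). Without the 7 arrays closer to another group, which left 3 WT arrays at 72 h, the 72 h values were 2.98 and 1.83 (exact adjusted p = 0.057 for both).

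The same test on the within-array difference of the genes, 1 of 10 such comparisons added after the values were seen, set the genotype effect of Pdpn beside that of Aqp3. In Th17 cells at 48 h the difference of Pdpn relative to Aqp3 was -1.58, with an exact unadjusted p of 0.04 and an adjusted p of 0.099. Without the arrays closer to another group the value was -2.11 (exact adjusted p = 0.04). At 72 h it was -0.22 (exact adjusted p = 0.86), and -1.44 without those arrays (exact adjusted p = 0.041). Neutrophil markers moved with the genotype in these cultures: their summed signal was 26 to 35 in WT and 51 to 1448 in Malt1-/- Th17 cells at 48 h, and 18 to 42 against 198 to 5239 at 72 h. S100a8 was at least 3.16-fold and at least 14.8-fold higher, with 3 and 5 of 5 Malt1-/- arrays detected. Of the 7 listed markers 3 passed the detection filter (S100a8, S100a9 and Elane), and Mpo, Camp and Ngp were detected on no more than 4 of the 40 arrays. In each Malt1-/- Th17 group all 6 markers on the array, these among them, were detected on at least 1 array. In each WT Th17 group 1 of the 6 was, and in the Th1 groups 0 to 2 were. Their part in the genotype differences was not tested.

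As a description, since it contains the contrast that chose the genes, the genotype effect in Th17 minus that in Th1 cells was -0.93 ± 0.82 for Pdpn and 0.64 ± 0.55 for Aqp3 at 48 h. At 72 h these values were 0.41 and 0.21.

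**Figure D2:**
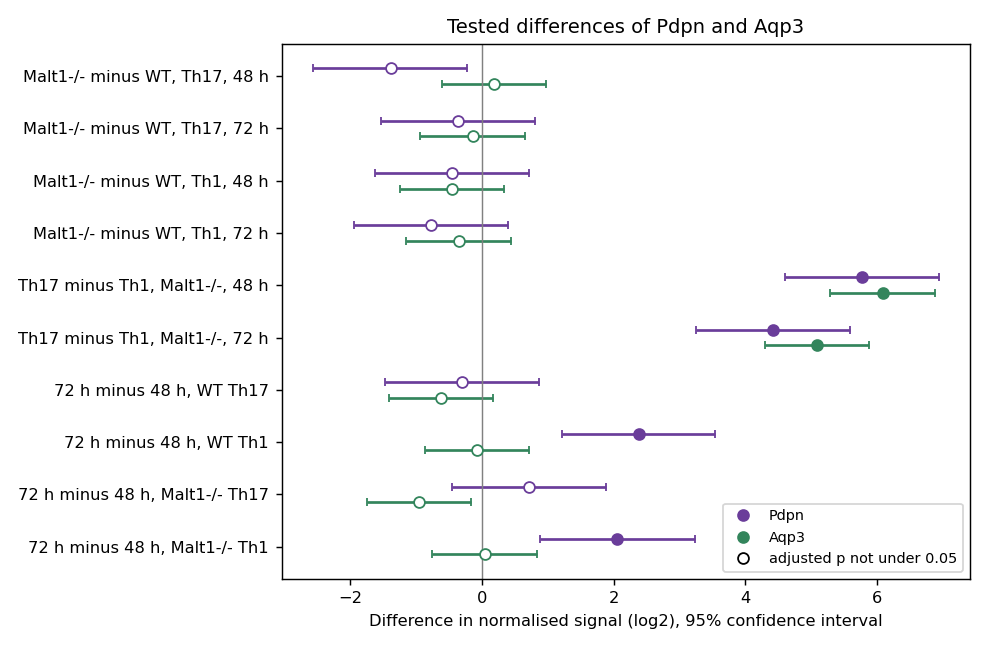
Difference in normalised signal (log2) with its 95% confidence interval for Pdpn (purple) and Aqp3 (green) in 10 comparisons of the limma fit; filled points had an adjusted p under 0.05. Both genes pass in Malt1-/- Th17 minus Th1 cells, Pdpn also in the comparison of 72 h with 48 h in Th1 cells of both genotypes, and no genotype difference passes.

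With time, Pdpn rose in Th1 cells of both genotypes, where Aqp3 was near background at both times. In WT Th1 cells 5.57% of tested genes were called higher at 72 h than at 48 h, and Pdpn was called: its signal was higher by 2.38 (interval 1.21 to 3.55, 5.2-fold, limma adjusted p = 0.01). The groups overlapped through replicate 4 of 48 h alone, and the other 4 arrays of 48 h lay below all 5 of 72 h. Without replicate 4 of 72 h the rise was 3.04 (limma adjusted p = 0.00015), and without replicate 4 of 48 h it was 2.91 (limma adjusted p = 0.0028). Aqp3 differed by -0.07 (limma adjusted p = 0.93), and by 0.58 without replicate 4 of 48 h (limma adjusted p = 0.17).

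In Malt1-/- Th1 cells 4.15% of tested genes were called higher at 72 h, and Pdpn was called. On background-corrected signals it was at least 3.32-fold higher at 72 h (measured difference 2.06, interval 0.89 to 3.24, limma adjusted p = 0.029), with no overlap between the times. Leaving out single arrays moved the adjusted p over 0.05 in 7 of 10 cases (difference 1.76 to 2.40, highest adjusted p 0.13). Without the arrays closer to another group the difference was 2.40 (limma adjusted p = 0.00013). The array this took from these groups, replicate 2 of 72 h, was closest to the 48 h group. Its removal widens the difference by the way it was chosen, so this value does not offset the failures. Aqp3 differed by 0.04 (limma adjusted p = 0.97).

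Both Th1 calls of Pdpn depended on the correction for background, and the 48 h signal lay at the floor. Without it the rise was 1.14 in WT (limma adjusted p = 0.056) and 0.79 in Malt1-/- Th1 cells (limma adjusted p = 0.23). With only the 2 groups compared in the fit, the WT rise had a limma adjusted p of 0.11. Lum, a stromal gene, also rose in Malt1-/- Th1 cells at 72 h, by 1.59 (limma adjusted p = 1.4e-05). The 3 of 8 stromal markers that passed the detection filter summed to 100 to 173 there and to 38 to 72 in WT Th1 cells of 72 h. Mean Pdpn signal was 7.80 in those WT cells and 7.03 in Malt1-/- Th1 cells of 72 h. The part of stromal cells in the Pdpn rise was not tested.

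In Th17 cells neither gene was called between the times. The percentages of all tested genes called in either direction were 12.3% in WT and 0.699% in Malt1-/- Th17 cells. Pdpn in WT Th17 cells differed by -0.31 (limma adjusted p = 0.78) and Aqp3 by -0.63 (limma adjusted p = 0.31). In Malt1-/- Th17 cells Pdpn was higher at 72 h by 0.71 (interval -0.46 to 1.89, limma adjusted p = 0.61) and Aqp3 differed by -0.96 (interval -1.75 to -0.16, limma unadjusted p = 0.02, adjusted p = 0.25).

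The arrays of the Malt1-/- Th17 groups were nonetheless well ordered for each gene. All 5 Aqp3 values of 72 h lay below all 5 of 48 h, and the exact two-sided permutation test of this 1 gene gave p = 0.0079, the smallest that 5 against 5 arrays allow. For Pdpn the exact permutation test gave p = 0.024, and both p are unadjusted. The divergence of the genes was tested on the within-array difference: Pdpn rose by 1.67 relative to Aqp3 between the times (exact permutation adjusted p = 0.04, over 10 comparisons). In WT Th17 cells the same value was 0.31 (exact permutation adjusted p = 0.86), and 1.01 once the arrays closer to another group were left out (exact permutation adjusted p = 0.041). Whether the value differed between the genotypes was not tested beyond the genotype by time effects of the single genes, 1.03 for Pdpn and -0.33 for Aqp3 (limma adjusted p = 0.56 and 0.82), and 0 of the 2 genes passed, where 0.121% of tested genes did. In Th1 cells those effects were -0.31 and 0.11 (limma adjusted p = 1 for both), where 0.0746% of tested genes passed.

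Within groups the genes showed no common spread over all arrays. Deviations from the 8 group means gave Pearson r = 0.312 and Spearman rho = 0.213 over 40 arrays (two-sided permutation p = 0.14 and 0.22 from 100000 resamples within groups; 7 relations computed, adjusted p = 0.33 for r). Without the 2 arrays farthest from the median in Pdpn, WT Th1 72 h replicate 4 (-2.63) and WT Th1 48 h replicate 4 (2.12), r was -0.197 and rho -0.119 (permutation p = 0.45 and 0.53). The sign therefore rested on those arrays.

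The lineages differed in sign. Over the 20 Th17 arrays r was -0.479 and rho -0.463 (permutation p = 0.063 and 0.043, adjusted p = 0.22 for r), and without the 2 farthest arrays r was -0.134. Over the 20 Th1 arrays r was 0.657 and rho 0.702 (permutation p = 0.0099 and 0.014, adjusted p = 0.069 for r), and without the 2 farthest arrays r was 0.413 (permutation p = 0.3). None of the relations passed after adjustment, and the difference between lineages was not tested.

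**Figure D3:**
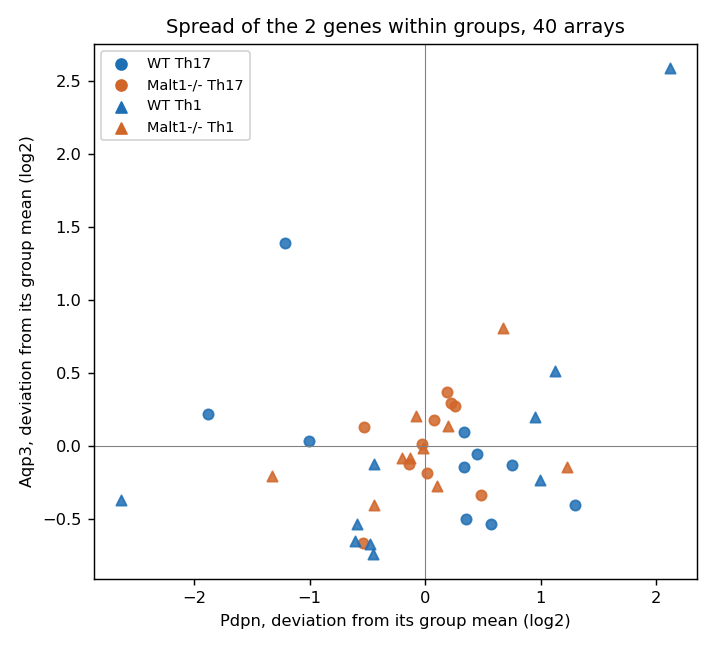
Deviation of Pdpn (x) and of Aqp3 (y) from the mean of their own group (log2) on each of the 40 arrays; circles are Th17 and triangles Th1 arrays, blue WT and orange Malt1-/-. The WT Th1 array at the upper right is 48 h replicate 4 (Pdpn 2.12 above its mean) and the one at the far left is 72 h replicate 4 (-2.63).

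The genes most like each were ranked by Pearson r over the 40 arrays, as a description with no test, since lineage sets most of the likeness. For Pdpn these were Tnfrsf13b, a receptor for the cytokines BAFF and APRIL (0.962), Rcan3, a calcineurin regulator (0.946), Niban2 (0.943), Ctla2b (0.938) and Cyb5a, cytochrome b5 (0.937). Like Pdpn, Tnfrsf13b was higher in Th1 cells at 72 h (9.97 ± 0.75 in WT and 9.72 ± 0.47 in Malt1-/-) than at 48 h (9.15 ± 0.47 and 8.42 ± 0.11), but its mean was 11.85 ± 0.33 in WT and 11.88 ± 0.20 in Malt1-/- Th17 cells at 48 h. When the group means were removed, Tnfrsf13b was again first (r = 0.874), followed by Anxa3 (0.769), Timp1, an inhibitor of metalloproteinases (0.768), Tdrkh (0.766) and Chchd10 (0.760).

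For Aqp3 the 5 genes were Il17f (0.974), Sgk1, a salt-sensing kinase gene (0.974), Acsbg1, an acyl-CoA synthetase gene (0.973), Capg, an actin-capping gene (0.972), and Mif4gd (0.970). With group means removed they were Capg (0.756), Mif4gd (0.740), Niban2 (0.720), Acsbg1 (0.720) and Il17f (0.720). On WT Th1 48 h replicate 4 Aqp3 lay 2.59 above its group mean and Il17f read 9.37. The SD in that group was 2.15 for Il17f and 1.35 for Niban2. Neither this ranking nor the one for Pdpn was repeated without outlying arrays. Sgk1 read 12.47 ± 0.32 in WT and 12.42 ± 0.45 in Malt1-/- Th17 cells at 48 h, and Capg 12.99 ± 0.26 and 13.26 ± 0.13. Aqp3 was number 32 in the order for Pdpn (r = 0.895), and number 1796 with group means removed. Pdpn was number 75 in the order for Aqp3.

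The genes around each member were read from lists chosen with earlier results known. As the background for each direction, 3.41% of all tested genes were higher and 2.97% lower in Malt1-/- than in WT Th17 cells at 48 h, and 2.89% higher and 1.53% lower at 72 h. Lower in Th17 than in Th1 cells of Malt1-/- mice were 8.72% at 48 h and 9.16% at 72 h. Of the 11 other aquaporin genes, 4 passed the detection filter and 0 were called between genotypes in Th17 cells. In Malt1-/- cells 1 was higher in Th17 than in Th1 cells at both times. It was Aqp9, another aquaglyceroporin, which rose by 1.86 ± 0.37 at 48 h (limma adjusted p = 0.00027) and by 2.18 ± 0.37 at 72 h (limma adjusted p = 2.5e-05). Its level was 7.54 against 5.67 at 48 h. The median differences of the 4 genes were 0.11 and -0.03, against -0.01 and 0.02 for all tested genes.

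Of 15 genes for glycerol and neutral lipid handling, 12 were tested and 1 fell in Malt1-/- Th17 cells at each time. It was Dgat2, which makes triglyceride. At 48 h it was at least 1.97-fold lower, with 0 of 5 Malt1-/- arrays and all 5 WT arrays detected (limma adjusted p = 0.021). At 72 h it differed by -1.19 ± 0.34 (limma adjusted p = 0.042). The count was 0 at 48 h without background correction, without WT replicate 1 or without Malt1-/- replicate 3. At 72 h it was 0 with median scaling and on omission of any one of WT replicates 1 and 3 and Malt1-/- replicates 1, 2, 4 and 5, and 2 without WT replicate 4 or 5. The list's median difference was -0.04 at 48 h and 0.02 at 72 h, next to -0.01 and 0.04 for all genes.

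Of 19 genes that make or clear hydrogen peroxide, 15 were tested, and 2 fell in Malt1-/- Th17 cells at 48 h. These were Prdx2, a peroxiredoxin (-0.70 ± 0.13, limma adjusted p = 0.002), and Rac2, the GTPase of the phagocyte oxidase (-0.75 ± 0.18, limma adjusted p = 0.015). At 72 h 1 rose and 1 fell: Gpx1, a glutathione peroxidase (0.53 ± 0.12, limma adjusted p = 0.0083), and Cat, catalase (-0.65 ± 0.18, limma adjusted p = 0.034). The 72 h count was 0 with median scaling or without WT replicate 3, and 1 on omission of any one of WT replicate 1 and Malt1-/- replicates 1, 2 and 5. Median differences were -0.13 and -0.06.

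On the Pdpn side, 7 of 12 partner and actin-link genes were tested and 0 passed between genotypes in Th17 cells. In Malt1-/- cells at 48 h 2 were higher in Th17 than in Th1 cells, Lgals8, a galectin that binds podoplanin (0.98 ± 0.21, limma adjusted p = 0.00071), and Rdx, radixin (0.95 ± 0.34, limma adjusted p = 0.047). Cd9, a tetraspanin that associates with podoplanin, was lower (-1.12 ± 0.37, limma adjusted p = 0.028). At 72 h Lgals8 alone of the 7 was called (0.58 ± 0.21, limma adjusted p = 0.045). With single arrays left out the 48 h count of 3 dropped to 1 in 5 of 10 cases (Th1 replicates 1 and 2, Th17 replicates 3, 4 and 5). The 72 h count dropped to 0 in 6 of 10 (Th1 replicates 1, 3 and 4, Th17 replicates 1, 2 and 3) and with median scaling. These 3 were named after their values were seen.

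Podoplanin carries mucin-type O-glycans, and 10 of 11 genes of that pathway were tested. Between genotypes in Th17 cells 0 were called at 48 h and 1 at 72 h, Galnt1, which starts such chains (0.67 ± 0.17, limma adjusted p = 0.019). The 72 h count was 0 with median scaling or on omission of any one of WT replicate 3 and Malt1-/- replicates 2 and 5, 2 on omission of WT replicate 4 or Malt1-/- replicate 3, 3 on omission of WT replicate 5, and 6 once the arrays closer to another group were left out. In Malt1-/- cells 3 were higher and 1 lower in Th17 than in Th1 cells at 48 h, and 4 higher and 1 lower at 72 h, with medians of 0.33 and 0.40. Gcnt1, which branches the core, was higher by 1.91 ± 0.41 and 3.04 ± 0.41 (limma adjusted p = 0.00061 and 4e-07). St3gal1, which caps it with sialic acid, differed by -2.01 and -2.34 (limma adjusted p = 1.7e-06 and 8.9e-08). Both were chosen after their values were seen.

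**Figure D4:**
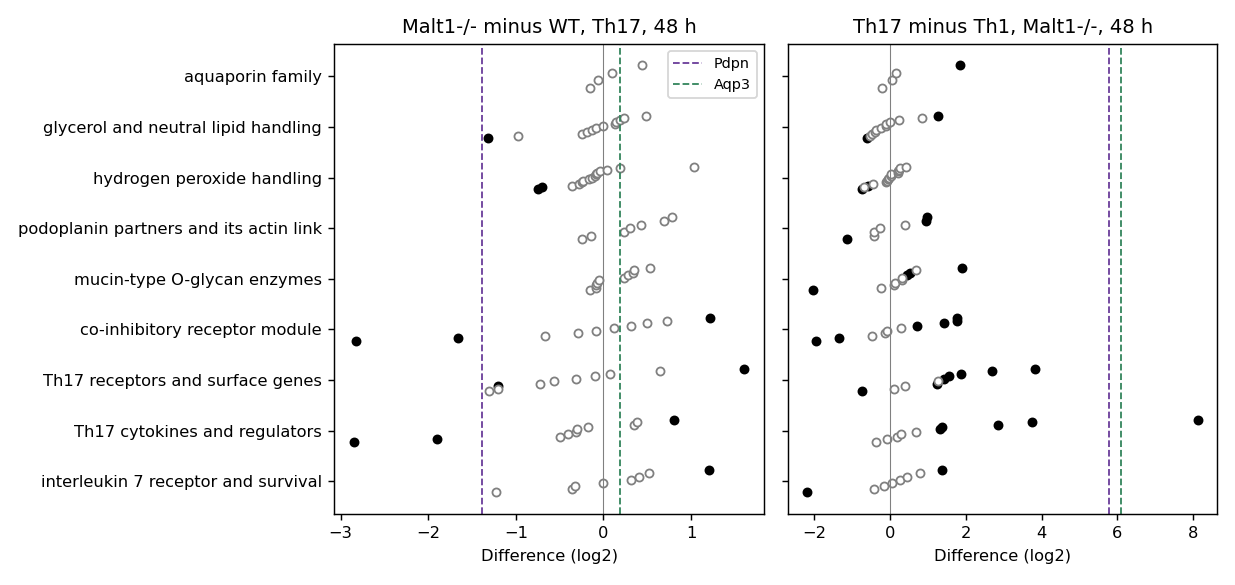
Difference (log2) of each tested gene of 9 lists in Malt1-/- minus WT Th17 cells at 48 h (left) and in Th17 minus Th1 cells of Malt1-/- mice at 48 h (right); filled points were called at an adjusted p under 0.05, and dashed lines mark Pdpn (purple, -1.39 and 5.77) and Aqp3 (green, 0.19 and 6.09). On the right, 1 listed gene, Il17f at 8.12, lies beyond both.

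Podoplanin has been placed in a co-inhibitory receptor module of T cells, whose list held 10 tested genes of 11. These were receptors and also the ligand Cd274, the cytokine Il10 and the transcription factor Maf, so the counts are not of co-inhibitory receptors alone. In Malt1-/- Th17 cells at 48 h 1 rose and 2 fell. Cd274 (PD-L1) rose by 1.22 ± 0.22 (limma adjusted p = 0.0014), Ctla4 differed by -1.66 ± 0.41 (limma adjusted p = 0.016) and Il10 by -2.83 ± 0.61 (limma adjusted p = 0.0063). At 72 h Ctla4 (-1.58 ± 0.41, limma adjusted p = 0.024) and Il10 (-2.41 ± 0.61, limma adjusted p = 0.022) were again lower, and 0 rose. That count was 0 on omission of any one of WT replicates 1 and 3 and Malt1-/- replicate 5, and 1 with median scaling or without Malt1-/- replicate 1 or 2. The medians were 0.02 and -0.07. In Malt1-/- cells 4 were higher and 2 lower in Th17 than in Th1 cells at 48 h, and 2 higher and 3 lower at 72 h.

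Other receptors and surface genes of Th17 cells, 10 tested of 11, followed the lineage in Malt1-/- cells: 6 were higher and 1 lower in Th17 than in Th1 cells at 48 h, and 6 higher and 0 lower at 72 h, with medians of 1.35 and 1.54. Ccr6, the chemokine receptor of Th17 cells, was at least 8.91-fold and at least 7.38-fold higher. Between genotypes in Th17 cells at 48 h Cxcr6, a chemokine receptor gene, rose by 1.61 ± 0.26 (limma adjusted p = 0.00029) and Tmem176a, a membrane protein gene, differed by -1.20 ± 0.29 (limma adjusted p = 0.015). At 72 h 0 of the 10 were called.

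Of 13 Th17 cytokine and regulator genes, 10 were tested. At 48 h Il17a and Il17f fell and Stat3, the signal transducer of interleukin 6, rose in Malt1-/- Th17 cells by 0.80 ± 0.25 (limma adjusted p = 0.048). At 72 h 3 fell, Il17a, Il17f and Nfkbiz, an NF-kappaB cofactor (-0.95 ± 0.27, limma adjusted p = 0.041). The count was 1 with median scaling and on omission of any one of WT replicates 1, 3 and 4 and Malt1-/- replicates 2 and 5. In Malt1-/- Th17 against Th1 cells 5 were higher and 0 lower at 48 h, and 3 higher and 1 lower at 72 h, with medians of 1.01 and 0.44. Rora, a nuclear receptor gene, was higher by 3.75 ± 0.37 at 48 h (limma adjusted p = 6.4e-10). Of 10 genes for the interleukin 7 receptor and survival, through which podoplanin has been tied to Th17 cells, 8 were tested, and 1 rose between genotypes at 48 h, Jak1 (1.20 ± 0.37, limma adjusted p = 0.047). This call rests on the full set of arrays: the count was 3 without WT replicate 5 and 0 without any other single array of these groups.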

How the data were processed

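As deposited, the raw values are intensity, the signal of each bead-array probe. Array medians ran from 127.1 to 193.3, so the signals had been neither scaled between arrays nor corrected for background. Beside each signal the deposited files give a fraction, 1 minus the detection p-value of the probe. The authors' value table is in log2 units; checked against the raw signals, it is their quantile-normalised log2 centred on each probe, with a largest difference of 0.0149, and it served as an alternative. No label or header names the software that read the arrays.

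Background was corrected from the detection p-values (neqc, offset 16), followed by quantile normalisation and log2, in limma 3.58.1 and R 4.3.3. Probes with a detection p under 0.05 on at least 5 of 40 arrays were kept (20739 of 45281). Names came from the platform's gene table, in which 34885 probes had 1 symbol, 18 several and 10378 were not listed. The kept probe with the highest mean stood for a gene, which gave 10730 genes.

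The model was limma's lmFit and eBayes with 1 mean for each of 8 groups, over all genes, with Benjamini-Hochberg adjustment. Single values and differences between genes were tested with exact permutation tests over arrays. A group with 0 of 5 arrays detected is given a bound, with each of its signals raised to the lowest detected signal of its array; such bounds hold for background-corrected signals only. The script was tested on simulated data. The number of arrays limits the precision.

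Pdpn and Aqp3, the gene lists and the rules for named genes were chosen with earlier results of these data known. The named genes were both members, Malt1, the 5 genes most like each member with and without group means, up to 4 genes of each list with the smallest p among those called between genotypes in Th17 cells, and markers that bear on a label or moved beside a result. Alternatives were other background, scaling, filter, weight and array choices.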

Additional observations from a re-analysis of the deposited data

Results flagged for a closer look

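Of the 16 gene and group combinations examined, 4 held an array that stood far from the other 4. The cut is one that about 1 in 20 sets of independent normal values would pass. That rate cannot be set against this count, since the same array was flagged for both genes and most Th1 signals lay near the floor. Pdpn in WT Th17 cells at 48 h read 10.25 on replicate 5, where the other arrays read 12.47 to 12.89. In WT Th1 cells at 48 h replicate 4 stood high for both genes, with 7.55 for Pdpn (the others 4.81 to 4.98) and 7.90 for Aqp3 (the others 4.57 to 4.77). Aqp3 in Malt1-/- Th1 cells at 72 h read 5.70 on replicate 5, against 4.48 to 4.80 on the others.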

How the results depend on the processing

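The Th17 over Th1 difference in Malt1-/- cells passed for both genes under every alternative and with every array left out in turn. Without background correction and on the authors' value table, Pdpn in Malt1-/- minus WT Th17 cells at 48 h was -1.34 with either (limma adjusted p = 0.035). Array weights gave -1.70, leaving out the arrays closer to another group -1.86, and the exact permutation test kept -1.39 (unadjusted p = 0.04). It did not pass with median scaling (-1.18, limma adjusted p = 0.2), an offset of 50 (0.074), no filter (0.22), a stricter filter (0.12) or only the groups compared (0.059). The Pdpn rise in WT Th1 cells was 1.14 and 1.13 with those first settings and 2.38 with only the groups compared, and none of these passed. In Malt1-/- Th1 cells it was 0.79, 0.78 and, with an offset of 50, 1.38, none of which passed. Aqp3 over time in Malt1-/- Th1 cells turned to -0.01 without background correction and on the authors' table. The WT Th17 over Th1 values shrank without background correction, with an offset of 50 and on the authors' table: for Pdpn at 48 h to 4.69, 5.79 and 4.67, for Aqp3 at 48 h to 3.39, 4.45 and 3.38, and for Aqp3 at 72 h to 2.90, 4.00 and 2.89. The Malt1-/- values shrank likewise, for Pdpn from 5.77 to 3.53, 4.74 and 3.52 at 48 h and from 4.42 to 3.42, 4.06 and 3.41 at 72 h, and for Aqp3 from 6.09 to 3.76, 4.98 and 3.74 and from 5.10 to 2.89, 4.02 and 2.88. Aqp3 in Malt1-/- minus WT Th17 cells at 72 h turned to 0.06 with median scaling and to 0.27 when the arrays closer to another group were left out, which also turned its genotype by time effect in Th17 cells to 0.02. Median scaling moved the median of all genes to 0.17 between genotypes in Th17 cells at 48 h (-0.01 before) and to 0.13 at 72 h (0.04 before). The largest move was to 0.23 (-0.02 before), for the genotype effect in Th17 minus that in Th1 cells at 48 h. In all other comparisons the scaled median lay from -0.12 to 0.12. Over time in Malt1-/- Th17 cells Aqp3 passed with only the groups compared (-0.96, limma adjusted p = 0.027). The exact permutation test of single genes gave an unadjusted p of 0.0079 for Aqp3 (-0.96) and 0.024 for Pdpn (0.71). These are not comparable with the main limma p adjusted over all tested genes, 0.25 for Aqp3 and 0.61 for Pdpn.

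Pdpn relative to Aqp3 reversed in Malt1-/- minus WT Th1 cells at 48 h (main value 0.00), to 0.01 without background correction and on the authors' table, 0.03 with an offset of 50 and 0.07 when the arrays closer to another group were left out. In Malt1-/- Th17 minus Th1 cells at 72 h (main value -0.67, with Aqp3 near the floor in Th1 cells) it reversed to 0.52, 0.53 and 0.04 with the same first 3 settings. Without the arrays closer to another group it passed there (-0.95), in Malt1-/- minus WT Th17 cells at 48 h (-2.11) and 72 h (-1.44) and over time in WT Th17 (1.01) and WT Th1 cells (3.09), while Aqp3 relative to Il17a (2.98) and Il17f (1.83) at 72 h no longer did. The relation within groups reversed to r = -0.197 without the 2 farthest arrays and to -0.139 without background correction. The cause of these changes was not tested.

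With single arrays left out, Pdpn in Malt1-/- minus WT Th17 cells at 48 h ran from -1.86 to -1.21, passing only without WT replicate 5, and its time effect in Malt1-/- Th1 cells from 1.76 to 2.40. Values that changed sign were Pdpn in Malt1-/- minus WT Th1 cells at 48 h (-0.61 to 0.07) and its genotype by time effect in Th1 cells (-0.97 to 0.02). For Aqp3 they were the genotype difference in Th1 cells at 48 h (-0.64 to 0.19) and in Th17 cells at 72 h (-0.28 to 0.21), the time effect in Malt1-/- Th1 (-0.17 to 0.14) and WT Th1 cells (-0.26 to 0.58), and the genotype by time effects in Th1 (-0.54 to 0.29) and Th17 cells (-0.46 to 0.02). The WT lineage difference of Aqp3 at 48 h ran from 5.26 to 6.09. Pdpn relative to Aqp3 ran over time from 1.69 to 2.31 in Malt1-/- Th1, 1.51 to 1.87 in Malt1-/- Th17, 2.14 to 3.02 in WT Th1 and -0.21 to 0.97 in WT Th17 cells, where 4 against 5 arrays allow fewer permutations. In Malt1-/- Th1 and in Malt1-/- Th17 cells it no longer passed in 5 of 10 cases each (highest exact permutation adjusted p 0.079 in both). Between genotypes it ran from -0.12 to 0.07 in Th1 cells at 48 h, -2.11 to -1.36 and -0.87 to 0.20 in Th17 cells at 48 h and 72 h, and between lineages in Malt1-/- cells at 72 h from -0.96 to -0.33.

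Replicate numbers did not pair the arrays: same-numbered arrays had a median correlation of deviations of 0.014 (-0.416 to 0.513 over 140 pairs), and 6 of 40 arrays correlated best with their own number. With the replicate number as a block, Pdpn in Malt1-/- minus WT Th17 cells at 48 h stayed at -1.39 (limma adjusted p = 0.14) and no call of either gene changed. The number of genes called moved by over 1.5 times with some setting in every comparison, from 281 to 2335 (main 685) between genotypes in Th17 cells at 48 h, 105 to 1708 (474) at 72 h, 62 to 400 (149) and 138 to 607 (297) in Th1 cells, 1457 to 3566 (1991) and 1463 to 2730 (2227) between lineages in Malt1-/- cells, 192 to 2631 (1323) over time in WT Th17, 354 to 2391 (1126) in WT Th1, 20 to 1004 (75) in Malt1-/- Th17 and 206 to 1969 (638) in Malt1-/- Th1 cells, and 0 to 476 (13) and 5 to 22 (8) for the genotype by time effects in Th17 and Th1 cells. The planned use of other probes was not run, since each gene has 1. Signals at the floor in Th1 cells limit every fold change against them.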
